A study of Drosophila melanogaster with 3 samples.

Results

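Binding sites of the CG6163-eGFP fusion protein that lie on the X chromosome away from promoters and exons are described here. A peak was a member when its summit, the base of highest enrichment, lay on X, in no annotated exon and more than 500 bp from any annotated transcript start. Of the 10894 peaks in the conservative list of the whole series, 1281 met this rule. X held 2107 peaks in all, so that 60.8% of them were members (95% interval 58.7 to 62.9), and the same rule selected 5329 of 8782 peaks (60.7%) on the autosome arms 2L, 2R, 3L and 3R. The list also holds 3 peaks on chromosome 4 and 2 on an unplaced X scaffold, which entered no comparison.

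Chromatin immunoprecipitation and sequencing (ChIP-seq) with an antibody against GFP was carried out on whole *Drosophila melanogaster* prepupae. The labels name the antibody's target as CG6163 in one field and describe an anti-GFP precipitation in another, which was followed here. The strain, CG6163-GFP, carries an insertion targeting CG6163 that gives a CG6163-eGFP fusion protein. The design has 1 group of 3 biological replicates, with no second genotype, treatment or time, and sonication gave DNA pieces between 200 and 800 bp long. The labels also point to a possible control experiment, not analysed here. The labels give the age as unknown and the sex as not collected, so the dose of X in the chromatin and the binding per copy of X cannot be told apart. In whole animals, fewer cells with a site occupied and less binding per cell cannot be told apart either. The replicates' own thresholded lists held 7449, 7920 and 5844 peaks, of which 898, 923 and 643 were members on X. Each interval given with a share is a 95% exact binomial interval, which covers only the error of counting.

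Sequence-specific proteins bind DNA at promoters and at distal elements such as enhancers, which in the compact fly genome often lie in introns. The X chromosome of *Drosophila* is present in different copy number in the sexes, and in males the dosage compensation complex, guided by the roX RNAs and by GA-rich recognition elements, raises transcription from the whole chromosome. X is also known to be richer in simple sequence repeats than the autosomes.

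The members with the highest signals show the sequence that lay under the strongest binding. Each window below is 101 bases long and centred on the summit, read on the plus strand of dm6 from the RefSeq release of that assembly, with capitals for unbroken runs of 8 or more A or T bases. Each of these 8 windows holds at least 1 such run, as did 71.0% of all X summit windows, 72.7% of those of the strongest 128 members and 58.0% of all windows of that length that tile the same classes of X sequence.
CG32772, chrX:4910342-4910442: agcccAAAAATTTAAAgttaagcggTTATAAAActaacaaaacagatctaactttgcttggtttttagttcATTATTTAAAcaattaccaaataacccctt
CG3726, chrX:5918867-5918967: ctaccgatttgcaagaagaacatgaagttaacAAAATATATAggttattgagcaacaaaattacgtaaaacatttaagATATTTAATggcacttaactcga
Tlk, chrX:3742170-3742270: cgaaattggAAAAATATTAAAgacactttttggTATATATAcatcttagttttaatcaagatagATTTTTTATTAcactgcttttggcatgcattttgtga
norpA, chrX:4324948-4325048: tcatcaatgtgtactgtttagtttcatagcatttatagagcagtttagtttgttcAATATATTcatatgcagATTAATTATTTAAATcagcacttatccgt
Raf, chrX:2300656-2300756: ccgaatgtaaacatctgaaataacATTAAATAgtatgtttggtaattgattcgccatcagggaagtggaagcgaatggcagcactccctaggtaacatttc
near Act5C, chrX:5896107-5896207: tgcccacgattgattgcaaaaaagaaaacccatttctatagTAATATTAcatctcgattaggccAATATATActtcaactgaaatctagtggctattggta
prage, chrX:1830719-1830819: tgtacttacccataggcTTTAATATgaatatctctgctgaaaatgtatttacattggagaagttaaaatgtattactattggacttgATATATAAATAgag
LPCAT, chrX:9579247-9579347: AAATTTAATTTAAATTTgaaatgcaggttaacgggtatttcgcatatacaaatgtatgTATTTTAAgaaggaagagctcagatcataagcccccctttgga

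A further 4 windows show members that hold a described word, taken from the strongest of those found in all 3 replicates, with capitals for the word on either strand. The window at *Zw* is shown for AAAAAAAA, that near *c12.1* also for AAAAAAAA, of which it holds several copies, that in *Raf* for GAGAGAGA and that in *Myc* for AGATAA. The windows near *c12.1* and in *Raf* are each the second strongest for their word.
Zw, chrX:19668565-19668665: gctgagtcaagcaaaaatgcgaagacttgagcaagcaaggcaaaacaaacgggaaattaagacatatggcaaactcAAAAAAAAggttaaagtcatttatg
near c12.1, chrX:9305885-9305985: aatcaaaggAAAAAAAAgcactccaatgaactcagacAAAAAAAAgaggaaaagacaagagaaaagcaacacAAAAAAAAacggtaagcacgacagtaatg
Raf, chrX:2302270-2302370: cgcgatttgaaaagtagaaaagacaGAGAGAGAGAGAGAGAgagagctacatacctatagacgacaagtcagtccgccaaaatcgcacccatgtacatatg
Myc, chrX:3381876-3381976: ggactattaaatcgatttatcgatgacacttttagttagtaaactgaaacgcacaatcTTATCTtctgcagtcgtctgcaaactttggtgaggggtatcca

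On X the peaks away from starts lay in introns far more than in intergenic sequence. Of the 1281 members, 1106 lay in introns and 175 in intergenic sequence, an intron share of 86.3% (interval 84.3 to 88.2) against 69.1% (67.9 to 70.4) on the autosome arms together. The single arms ranged from 61.9% on 3L to 74.9% on 2R. Introns make up 66.1% of the intron and intergenic sequence of X that the rule admits, which totals 15.5 Mb, and 57.7% of the 72.8 Mb of the autosome arms. In the replicates' own lists the intron share was 87.2%, 88.1% and 88.3% on X and 69.0%, 69.6% and 69.1% on the autosome arms. The groups did not overlap, and the difference was 18.6 ± 0.496 percentage points (SD, n = 3; exact two-sided sign-flip permutation test, p = 0.25, the smallest that 3 replicates allow).

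Set against the amount of sequence, introns of X carried more peaks than those of any autosome arm, and intergenic sequence of X carried fewer. Intron density was 108 summits per Mb on X, against 94.2 on 2L, 88.4 on 2R, 94.0 on 3L and 78.3 on 3R. Intergenic density was 33.4 per Mb on X, against 55.7 on 2L, 36.8 on 2R, 67.2 on 3L and 51.6 on 3R. X was also the highest in introns and the lowest in intergenic sequence in each replicate's own list. X intron density was 76.7, 79.7 and 55.7 per Mb in replicates 1, 2 and 3, and the ratio of X to the autosome arms was 1.33, 1.29 and 1.25, a mean of 1.29 ± 0.0408 (SD, n = 3; exact two-sided sign-flip permutation test on the log ratio, p = 0.25). X intergenic density was 21.9, 21.0 and 14.3 per Mb, and its ratio 0.620, 0.569 and 0.528, a mean of 0.572 ± 0.0461 (SD, n = 3; same exact test, p = 0.25). The arm nearest to X was 2R, with 24.6, 24.6 and 18.3 intergenic summits per Mb in replicates 1, 2 and 3, above X in each of them. With both classes pooled, density was 82.9 per Mb on X and 73.2 on the autosome arms, with 81.6 on 3L as the nearest arm. The pooled ratio was 1.16 ± 0.0425 over the replicates (1.12 to 1.21; exact sign-flip p = 0.25). With the annotation reduced to protein-coding genes, the intergenic ratio of the conservative list was 0.723 against 0.624 with all genes, and the intron ratio 1.26 against 1.24.

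**Figure D1:**
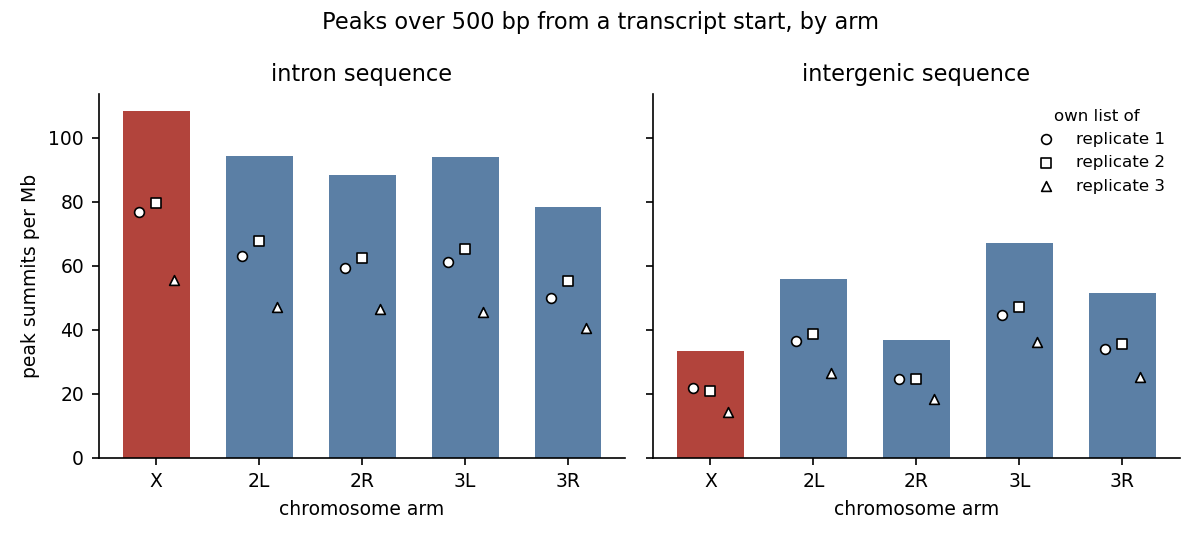
Peak summits per Mb of admitted sequence (y axis) on X (red) and on the 4 large autosome arms (blue), for introns (left) and intergenic sequence (right); bars are the conservative list and open symbols the 3 replicates' own thresholded lists. X is highest in introns, at 108 per Mb, and lowest in intergenic sequence, at 33.4 per Mb.

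The share of peaks that lay away from starts and exons was close to that of the other arms. In the replicates' lists it was 59.99%, 60.3% and 57.7% on X and 58.9%, 58.5% and 57.1% on the autosome arms. The difference of 1.13 ± 0.625 percentage points (SD, n = 3; exact sign-flip p = 0.25) had the same sign in each replicate but turned to −0.112 with a promoter window of 1000 bp, and to −1.42 with protein-coding genes only. At the limit of the rule, members at 501, 502 and 502 bp from a start had signals of 272, 94.96 and 17.5, and the nearest peaks counted as promoter peaks, at 496, 495 and 490 bp, had 964, 98.3 and 2531.

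Density was lower at each step away from the nearest transcript start in both classes, on X and on the autosome arms. In introns of X it was 187 summits per Mb between 500 and 1000 bp, 149 up to 2000 bp, 125 up to 5000 bp, 97.0 up to 10000 bp and 63.5 beyond. The autosome arms gave 158, 127, 98.1, 85.0 and 48.3 in the same steps, each below X. In intergenic sequence the order was the reverse at each step, from 79.0 on X against 92.5 on the autosome arms next to the start, to 6.85 against 18.1 beyond 10000 bp, where X held 12 members. X stood above the autosome arms at every step in introns, and below them at every step in intergenic sequence, in the lists of all 3 replicates. Replicates 2 and 3 had more X intergenic summits per Mb between 1000 and 2000 bp than nearer to the start, so the fall there was not steady. The median member lay 3245 bp from a start, and the median autosome peak 3400 bp.

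**Figure D2:**
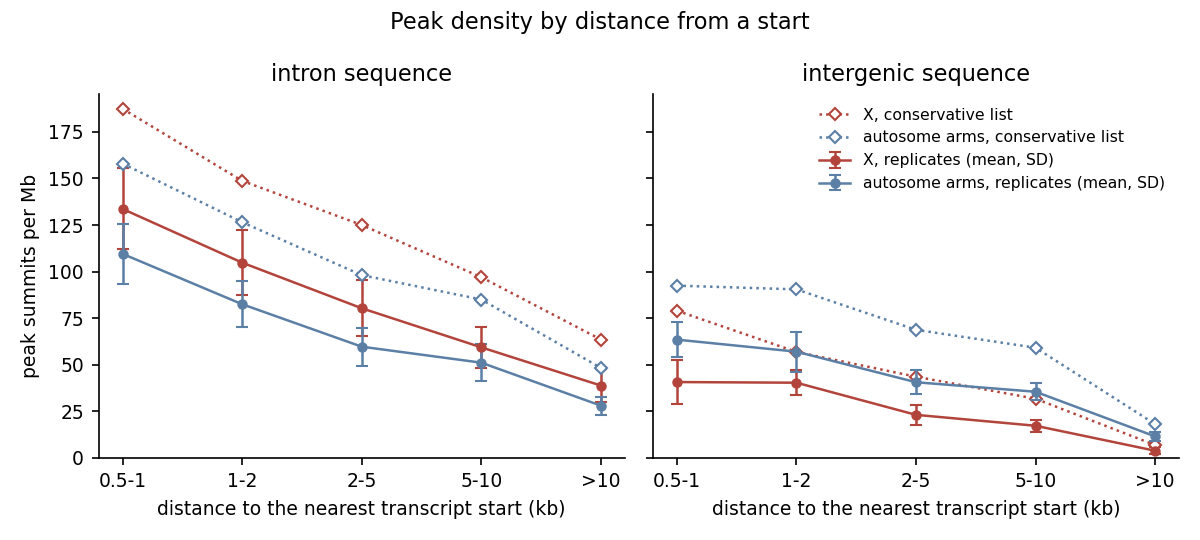
Peak summits per Mb (y axis) in steps of distance from the nearest transcript start (x axis, kb), for introns (left) and intergenic sequence (right), on X (red) and on the autosome arms (blue); filled points are the mean and SD of 3 replicates' lists and open diamonds the conservative list. Beyond 10 kb, X introns hold 63.5 and X intergenic sequence 6.85 summits per Mb in the conservative list.

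By place in the transcript, first introns were denser than the rest of the intron sequence. With introns taken from the canonical transcript of each protein-coding gene, first introns held 394 members, which is 35.6% of the intron members in 24.7% of the intron sequence, at 156 per Mb. Other introns held 90.5 per Mb. On the autosome arms the corresponding densities were 134 and 61.5, so that X was higher in both kinds. In intron sequence outside the canonical introns the order was the opposite, with 99.2 per Mb on X, where 188 members lay, and 126 on the autosome arms. By length, X introns of 5 to 20 kb held 135 members per Mb, against 92.7 in shorter and 98.8 in longer introns. The autosome arms also had their highest density in introns of 5 to 20 kb, at 105, against 77.0 in shorter and 70.1 in longer introns. These densities come from the conservative list alone. The kinds of intron were not compared at equal distance from a start, so place in the transcript and nearness to a start cannot be told apart here.

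Along the chromosome, members were most crowded between 3 and 4 Mb and rarest next to the centromere. The bin from 3 to 4 Mb held 131 members, a density of 174 per Mb, and 126, 125 and 93.1 per Mb in the lists of replicates 1, 2 and 3. Spans of *kirre* with 27, *Tlk* with 22, *Mnt* with 17, *CG12535* with 15 and *N* with 14 members held most of them. The bin from 13 to 14 Mb followed in the conservative list with 143 per Mb, but with 89.9, 93.1 and 62.6 in the replicates it stood below the bin from 7 to 8 Mb, which had 96.2, 99.1 and 69.3, and below that from 2 to 3 Mb. From 20 to 23 Mb the 3 bins held 17.7, 15.5 and 10.03 per Mb, and the last bin, beyond 23 Mb, held 0 members. Without the 1 Mb next to the centromere of each arm, the intron and intergenic ratios of X to the autosome arms were 1.23 and 0.647.

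The strongest member lay in an intron of *CG32772*, and genes for kinases, a phospholipase and a nuclear receptor were among the hosts of the 12 strongest members. Signal is the authors' value per peak, comparable only within a list, and the pooled value of the conservative list is given first. In dm6 coordinates the peak in *CG32772* (X 4910018 to 4910744, second intron) had a pooled signal of 2616, rank 12 of all 10894 peaks, and 857, 836 and 665 in the ranked lists of replicates 1, 2 and 3. It was the highest of these members in each replicate. The peak in *CG3726* (X 5918660 to 5919058, first intron) had a pooled signal of 2139, and 706, 766 and 629 in the replicates. That in *Tlk* (X 3742067 to 3742380), which encodes the Tousled-like kinase of chromatin assembly, had 1862, and 661, 662 and 561. All 3 replicates ranked each of these peaks within their first 59.

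Of the other strong members, 4 are described first, at positions 4, 5, 9 and 12 by signal. The first intron of *norpA* (X 4324852 to 4325129), the phospholipase C of phototransduction, held a peak of 1771 pooled and 589, 672 and 506 in the replicates. The second intron of *Raf* (X 2300560 to 2300842), the kinase that links receptor tyrosine kinases to the MAP kinase cascade, held one of 1768, with 535, 657 and 576. In both, replicate 2 had the highest value. Its ranked list also had the highest median signal over all members, 58.2 against 53.9 and 42.3 in replicates 1 and 3. The second intron of *Hr4* (X 1951776 to 1952049), a nuclear receptor of the ecdysone response, held a peak of 1441, with 513, 590 and 362. That peak lay 9971 bp from the nearest start of *Hr4*, and 2569 bp from the nearest transcript start of any gene. The peak in the first intron of *Zw* (X 19668481 to 19668742), glucose-6-phosphate dehydrogenase, had 1210 pooled and 403, 453 and 364 in the replicates.

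A lipid enzyme was among the remaining hosts. A peak of 1701 (X 5896006 to 5896303) lay in an intron of lncRNA:CR45668, 4704 bp from the start of *Act5C*, a cytoplasmic actin gene. The nearest transcript start of any gene was 3832 bp from it. Peaks of 1694 in *prage* (X 1830610 to 1830902), 1608 in *LPCAT* (X 9579144 to 9579451), a lysophospholipid acyltransferase, and 1289 in *CG34417* (X 6549741 to 6550026) followed. The peak in *prage* lay 534 bp from its start, near the limit of the rule. In 9 of these 11 members replicate 3 had the lowest signal, the exceptions being *Raf* and *LPCAT*. The ranked list of replicate 3 also had the lowest median over all members, 42.3 against 53.9 and 58.2. The order of replicates therefore includes any difference in signal over the members as a whole. Among X peaks of each replicate's own thresholded list the medians were 65.6, 70.4 and 67.9, so replicate 3 was not lowest there.

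**Figure D3:**
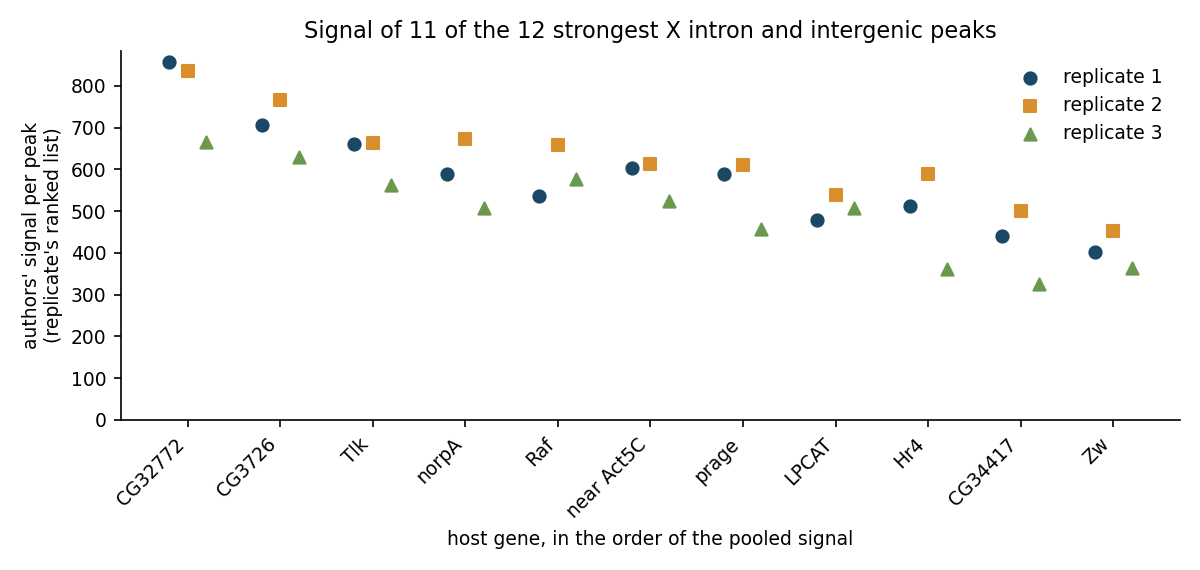
The authors' signal per peak in the ranked list of each replicate (y axis) for 11 of the 12 strongest members found in all 3 replicates, ordered by pooled signal (x axis, host gene). Values run from 857 in *CG32772* in replicate 1 to 325 in *CG34417* in replicate 3.

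No intergenic member reached the signals of those 12. The strongest, with 1199 pooled and 431, 490 and 210 in the replicates, covered X 7604506 to 7604873 and had as its nearest protein-coding gene *ct*, 3744 bp away, which encodes a homeodomain transcription factor. The next were at 1073, 506 bp from the start of *CG17896*, at 1066, 1313 bp from *CG3149*, at 973, 13288 bp from *c12.1*, and at 888, 639 bp from *CG12643*. The peak near *c12.1* lay 8750 bp from the nearest transcript start of any gene. Replicate 3 was lowest in 4 of these 5, all but the peak near *CG3149*, with 210 near *ct* and 166 near *c12.1* against at least 373 in the other replicates. The lower median of replicate 3 over all members, 42.3 in its ranked list, was not taken out. It is a value over the members and not the level of the whole list. These 5 were the strongest intergenic members found in all 3 replicates. The median signal was 146 in X introns and 124 in X intergenic sequence, and 144 at X promoter peaks.

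Signal on X did not stand apart from the autosome arms. The median over all members was 143 (quartiles 98.4 and 237), against 135 on the autosome arms. In the replicates' own lists the medians were 65.6, 70.4 and 67.9 on X and 67.0, 69.4 and 63.3 on the autosome arms. The ratio was 1.02 ± 0.0474 (0.980 to 1.07; SD, n = 3; exact two-sided sign-flip permutation test, p = 0.75), so that its sign changed between replicates.

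Replicates shared fewer than 50% of the members. Of the 1281, 519 (40.5%, interval 37.8 to 43.3) overlapped a thresholded peak in each replicate by at least 1 bp, 271 in 2, 241 in 1 and 250 in none. Over all peaks of the 5 arms the share found in all 3 was 40.3%, so the share of members was near the background, and it was 39.3% for the same classes on the autosome arms. Replicates 1, 2 and 3 contained 848, 866 and 626 members in their thresholded lists, and 1277, 1272 and 1240 in their ranked lists, which include peaks under the threshold. Starts of the compared sets in the ranked list behind the conservative list equal ranked peak starts of replicate 1 in 68.8% of lines for the first set and of replicate 2 in 69.4% for the second. For replicate 3 the shares were 0.345% and 0.422%, so by their starts the compared sets were those of replicates 1 and 2. Presence of members in the lists of replicates 1 and 2 is therefore not independent of how the conservative list was made. The ranked lists held 70608, 74274 and 85335 peaks in replicates 1, 2 and 3, and how many overlaps arise by position alone was not tested. Among peaks of each replicate's own list on X, 57.0%, 56.0% and 77.8% were found in both other replicates, against 57.9%, 54.1% and 74.4% on the autosome arms, a difference of 1.45 ± 2.19 percentage points (SD, n = 3; exact sign-flip p = 0.5).

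Members with higher signals were found in all 3 replicates more often, except among the weakest. With members split by signal into 10 groups of 128 or 129, 98.4% of the strongest group, with signals from 431 to 2616, were found in all 3 replicates. The share was 94.5% in the next group and 60.9% in the group with signals from 169.6 to 209.97, and between 0.781% and 3.13% in the 3 groups from 70.6 to 123. The weakest group, up to a signal of 70.5, stood at 17.8%, which is 23 of 129 members. All 23 overlapped a stronger peak of the same list, as did 83 of the 129, so their overlap with the replicates is not separate from that of the stronger peak. Over all members, 95 (7.42%) overlapped a stronger peak. The autosome arms had the same course.

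**Figure D4:**
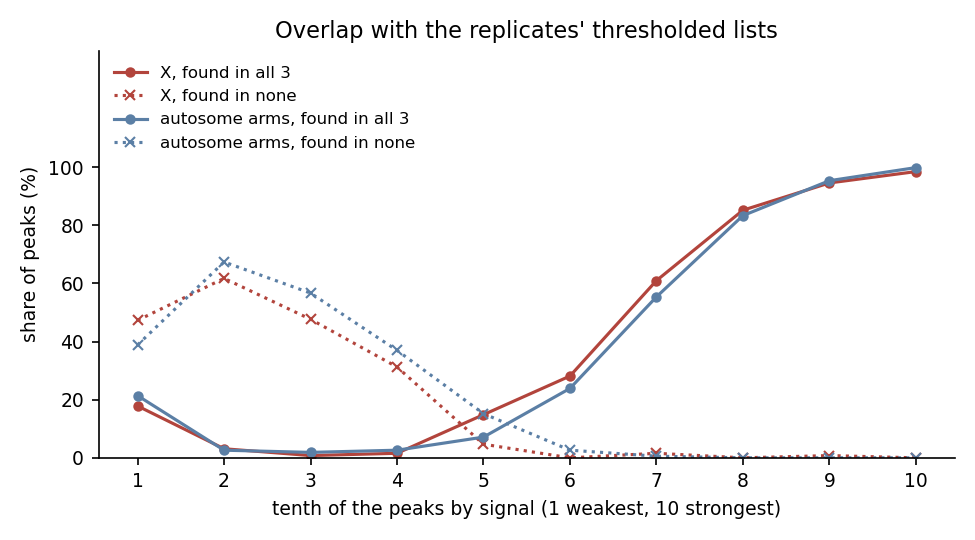
Share of peaks (y axis, percent) that overlap a thresholded peak in all 3 replicates (circles) or in none (crosses), in 10 groups by signal from weakest to strongest (x axis), for X members (red) and the same classes on the autosome arms (blue). The strongest X group stands at 98.4% found in all 3, and the weakest at 17.8%.

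Many members lay in a small set of long genes. Of the 2196 protein-coding genes of X, 308 held a member in their span, which is 14.0%, against 1167 of 11669 protein-coding genes of the autosome arms. With the nearest start counted for intergenic members, 387 genes (17.6%) had a member. In the replicates' lists the share with a summit in the span was 11.6% ± 0.685 (SD, n = 3). Only 70 genes had 5 or more members, and their spans held 675 of the 1281. These genes were picked by their counts, their share of the admitted sequence is not given, and the part of gene length was not tested. Genes with a member had a median span of 17.7 kb, against 2.16 kb for the rest. Among the 198 genes of 20 kb or more, 141 (71.2%) had a member, and on the autosome arms 504 of 802 (62.8%).

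Genes with a member also had a peak at a promoter more often. A promoter peak was present at 66.2% of genes with a member and at 19.97% of the rest, and at 26.5% of all X protein-coding genes. Among genes of 20 kb or more the shares were 70.9% of the 141 with a member and 22.8% of the 57 with none. These are counts of genes in 1 list, given with no test, and spans differ between the groups.

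The gene with the most members was *kirre*, an immunoglobulin-family adhesion receptor of myoblast fusion, with 37 in a span of 394 kb. The lists of replicates 1, 2 and 3 had 26, 23 and 19 summits there, and 15 of the 37 were found in all 3. Per 10 kb of admitted sequence *kirre* held 1.11 members, close to the mean of X introns, 108 per Mb. *Tlk* followed with 22 members, 13 of them in all 3 replicates, and with 20, 20 and 18 summits in the replicates' lists, so that its count changed little with the list. *mamo*, which encodes a zinc finger factor, also had 22, but 4 in all 3 replicates and 14, 11 and 6 in the lists, and its highest signal was 237. *CG43658* had 21 members (17, 19 and 12 in the replicates) and *CG1677* had 20 (20, 20 and 16). *CG1677* was the only one of the 10 genes with most members to lack a promoter peak.

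*Hr4* had 18 members, with 10, 11 and 10 summits in the replicates' lists. *Smr*, a corepressor of nuclear receptors and Notch targets, had 17 (14, 15 and 10 in the replicates). *Mnt*, the partner of Max that opposes Myc, also had 17 (13, 17 and 11). Its span of 29.9 kb made it the densest of the 10, at 7.25 members per 10 kb of admitted sequence, against 1.11 in *kirre*. *spri*, a guanine nucleotide exchange factor, had 16 members and *CG12535* had 15, each with 7 in all 3 replicates.

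Close neighbours were common, and the longest runs lay in *Myc*, *Grip* and *stx*. A run was a row of members whose neighbouring summits were at most 2 kb apart, and each of these 3 held 8. The run in *Myc*, a growth-promoting transcription factor, spanned X 3376690 to 3384008. Its strongest member had a signal of 1123, and 425, 359 and 360 in the replicates, and the other 7 ranged from 71.0 to 306. The run in *Grip*, a scaffold protein, spanned X 5968292 to 5974988, and 5 of its members were found in all 3 replicates, with signals up to 541. The weakest of these 5, with a signal of 22.1, overlapped the same replicate peaks as another of them, so the 5 stand for 4 separate sites in the replicates. In *stx* (X 10735866 to 10742768) the strongest member had 477, and 1 of the 8 was found in all 3 replicates. Its members with signals of 224 and 78.6 had the same ranked peak values in every replicate, as did those with 115.5 and 84.4. The 8 are therefore not all separate sites in the replicates. On X 20 runs had 5 or more members and held 9.68% of them, against 8.29% on the autosome arms. Single members made up 45.4% on X and 45.2% on the autosome arms, and the median gap between neighbours was 3935 bp and 4030 bp.

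In the list of dosage compensation and sex determination 1 of 4 protein-coding genes had a member, *Sxl*, against 17.6% of all X protein-coding genes by the same count. *Sxl*, the switch gene of sex determination, had 2, both overlapping a peak in every replicate, although each replicate's list had 1 summit there. *mof* (span 3.01 kb), the acetyltransferase of the dosage compensation complex, and *sisA* (0.779 kb), an X-linked numerator element, had 0. lncRNA:roX1 and lncRNA:roX2, the RNAs of that complex, held 0 members, and the nearest lay 4631 bp from the start of the first, with a signal of 81.9, and 18410 bp from that of the second, with 7.56. Median members per gene were 0 in this list and 0 over all X protein-coding genes.

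In the ecdysone list 3 of 5 genes had a member in the span or as nearest start, and in the signalling list 12 of 18, against 17.6% of all X protein-coding genes. Their median spans were 4.51 and 8.40 kb, against 2.52 kb over all X protein-coding genes, and the median ecdysone gene had 0 members. *Hr4* had 18, *br*, the Broad zinc finger factor of the prepupal response, had 5 (5, 5 and 1 in the replicates' lists), and *Cyp18a1*, which inactivates ecdysone, had 1 intergenic member of signal 60.4. *dor* and *usp*, the partner of the ecdysone receptor, had 0, and *usp* had a promoter peak. The median signalling gene had 0.5 members in the span. *Raf* and *N*, the Notch receptor, had 14 each. Of those in *Raf* 9 were found in all 3 replicates, and of those in *N* none, with 11, 14 and 8 summits in the replicates' lists for *Raf* and 6, 8 and 1 for *N*. *sog*, an extracellular BMP antagonist, had 6, and *dsh* and *dx* had 0. The rule admits 0 kb of the span of *dsh*, so its count in the span was fixed, and 0.749 kb of that of *dx*.

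Among patterning transcription factors 11 of 22 had a member in the span or as nearest start, against 17.6% of all X protein-coding genes, with a median span of 9.62 kb and a median of 0 members in it. *Bx*, a LIM-domain protein, had 12, *bi*, a T-box factor, had 11, and *ct* had 7 in the span and 3 intergenic ones nearest to it. *ac* and *ase*, proneural genes with short spans of 0.917 and 2.43 kb, had 0. In the span alone, 7 genes of the list had a member in the conservative list, and 7, 6 and 4 a summit in the replicates' lists. Among neuronal and adhesion genes 13 of 21 (61.9%) had a member, with a median of 1. Their median span was 48.5 kb, and of all X protein-coding genes of 20 kb or more 71.2% had a member. After *kirre*, *Fas2*, a cell adhesion molecule of axons, had 13 (5, 6 and 3 in the replicates) and *Ten-a*, a teneurin, had 9 (6, 6 and 5). Per 10 kb of admitted sequence *Fas2* held 1.98 and *Ten-a* 0.370 members, against 1.11 in *kirre*. *Appl*, with a span of 48.5 kb, and *cac*, a calcium channel with 53.8 kb, had 0 and no promoter peak.

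Of 13 cytoplasmic ribosomal protein genes on X, *RpL17* and *RpL22* among them, 0 had a member in the conservative list or in the list of any replicate, against 14.0% of all X protein-coding genes in the span. All 13 had a promoter peak, against 26.5% of all X protein-coding genes. Their median span was 1.71 kb, against 2.52 kb over all X protein-coding genes. The rule admits 0 kb of the spans of *RpL7A*, *RpL22*, *RpS10b*, *RpS28b* and *RpL35*, 0.059 kb of *RpS14a* and 0.758 kb of *RpS15Aa*. Where no sequence is admitted, a count of 0 in the span was fixed by the rule and says nothing about binding. The part of gene length in the counts of all these lists was not tested.

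Sequence at the summits of members was rich in A and T, as in the 8 windows printed above. A/T made up 63.5% of the 101-bp windows at X summits, 57.3% of equal windows centred 300 bp to each side, and 59.7% of all 101-bp tiles of the admitted X sequence. The summits therefore stood above the mean of that sequence, and the flanks below it. In the replicates' lists the difference between summits and flanks was 7.66, 7.16 and 8.07 percentage points, a mean of 7.63 ± 0.456 (SD, n = 3; exact two-sided sign-flip permutation test, p = 0.25). On the autosome arms it was 8.57 ± 0.387. X minus the autosome arms was −1.21, −0.969 and −0.627 points in the replicates (exact sign-flip p = 0.25), while the conservative list gave 6.26 on X and 6.18 on the autosome arms, the opposite order.

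The rise was narrow. In steps of 10 bp, A/T in X introns was 64.7% at the summit, 62.0% at 50 bp downstream, 55.8% at 150 bp and 59.8% at 500 bp. Intergenic members had a similar course, with 64.1% in the summit window and 56.3% in the flanks. The strongest of the 10 signal groups had 67.1% at summits and 58.0% in flanks, while the weakest had the opposite order, 54.6% and 59.4%. Of the weakest group, 83 of 129 overlapped a stronger peak, and the part of that overlap in the reversal was not tested. Unbroken A/T runs of 8 or more bases were in 71.0% of X summit windows, 52.2% of flanks and 58.0% of tiles, and in 67.5%, 49.6% and 57.8% on the autosome arms.

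**Figure D5:**
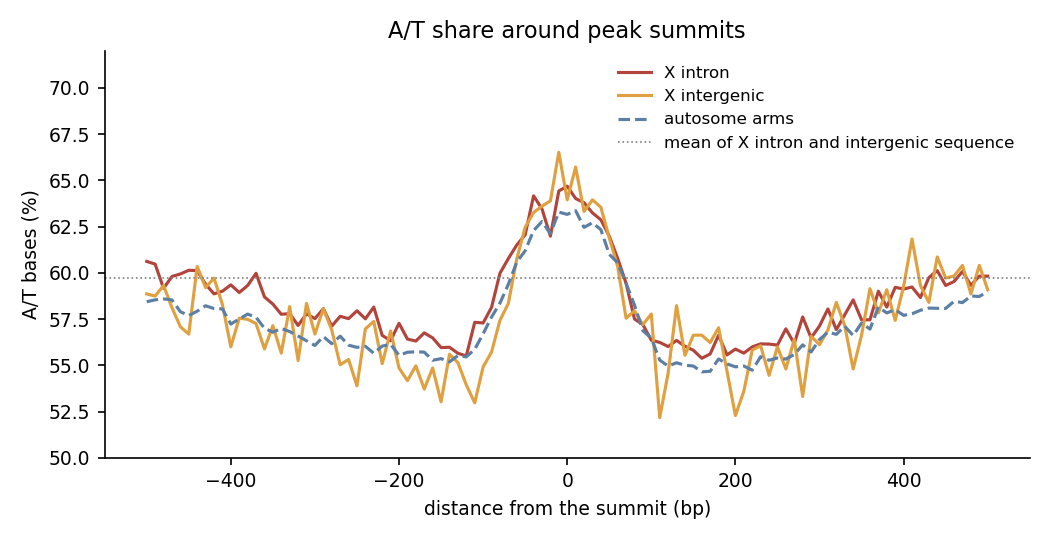
Share of A/T bases (y axis, percent) in steps of 10 bp by distance from the summit (x axis, bp) for X intron members (red), X intergenic members (yellow) and the same classes on the autosome arms (blue, dashed); the dotted line is the mean of all admitted X sequence, 59.7%. The X intron curve peaks at 64.7% at the summit and falls to 55.8% at 150 bp downstream, and the y axis starts at 50%.

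Of 22 short words searched on both strands, 8 were more frequent at X summits than in flanks in every replicate and 11 less frequent in every replicate. The 2 with the largest gain in the conservative list were AAAAAAAA, with 8.24 percentage points, and TATAAA, with 6.79. Among peaks shared by 2 replicates these were 4.39 and 11.5 without replicate 1, 3.28 and 10.7 without replicate 2, and 7.68 and 8.73 without replicate 3. AAAAAAAA was in 19.9% of X summit windows (interval 17.8 to 22.2), 11.7% of flanks and 9.35% of tiles. Its gain in the replicates was 7.04 ± 2.73 percentage points, from 3.89 to 8.72 (SD, n = 3). On the autosome arms the same word was in 11.3% of summit windows, 6.45% of flanks and 5.74% of tiles, so X was higher in all of these, the tiles included. TATAAA was in 17.3% of X summit windows (15.3 to 19.5), 10.5% of flanks and 12.2% of tiles. It gained 8.33 ± 0.342 points in the replicates, and 9.07 ± 1.12 on the autosome arms, a gap within the spread of the latter. With 3 replicates the exact sign-flip test cannot go below p = 0.25 for any word.

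The other words that gained in every replicate did so by small amounts. TAATTA, the core of many homeodomain sites, was in 6.64% of summits, 5.58% of flanks and 7.20% of tiles. AGATAA, the GATA factor word, was in 6.01%, 5.54% and 5.46%, and the strongest holder found in all 3 replicates is the member in *Myc* printed above. TTTATTTA was in 3.04%, 2.54% and 3.18%. TGANTCA, the AP-1 word, was in 2.58%, 1.99% and 2.11%. TTATGTAA was in 0.703%, 0.546% and 0.683%. TATCGATA, the DRE word of housekeeping promoters, was in 0.0781%, 0.0390% and 0.260%, that is in 1 of 1281 summit windows. For TAATTA, TTTATTTA and TATCGATA the summits were below the tiles, and the sign of the gain turned for each of these 6 words under at least 1 other list, window or flank.

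Repeat and GC-containing words were mostly lower at X summits than beside them. CACACACA was in 3.20% of summits, 5.39% of flanks and 3.44% of tiles, and a difference of −3.71 ± 1.17 points over the replicates (−4.98 to −2.65; SD, n = 3), which became 0.273 in the conservative list with flanks 1000 bp away. On the autosome arms it was in 2.74%, 3.61% and 2.22%. GAGAGAGA, the word of GA-repeat recognition elements, was in 1.87% of X summits, 1.83% of flanks and 0.807% of tiles, and its change took both signs in the replicates. The shorter GAGAG was in 12.9%, 16.0% and 11.4%. GCCAT, the YY1 and Pho word, was in 13.9%, 17.3% and 20.1%. GGAATG, the TEAD factor word, was in 3.43%, 6.32% and 5.36%, and TGGGAA in 6.09%, 7.38% and 6.71%.

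The remaining words were rare or lower at summits. CAGCTG was in 2.34% of summits, 3.67% of flanks and 3.37% of tiles. AGGNGGC was in 2.89%, 4.53% and 3.63%. CAGGTA was in 1.09%, 1.68% and 1.87%, and AGGTCA in 1.41%, 2.26% and 2.34%. CACGTG, the E-box of Myc and Max, was in 0.703%, 0.898% and 1.02%. ATTTGCAT was in 1.64%, 2.07% and 1.96%. ATATATAT was in 2.03%, 1.91% and 2.49% and AACCGGTT in 0.312%, 0.234% and 0.0854%, and both changed sign between replicates. Among these words the shorter ones can lie within longer ones, as GAGAG in GAGAGAGA. A match describes the letters of a window and is not a bound site.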

How the data were processed

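Peak lists of CG6163-eGFP ChIP-seq in 3 biological replicates of 1 group were analysed, on the dm6 assembly named in the labels. Per the labels, each replicate has its own lists and the series has lists from all 3. Aligner and peak caller: not given in the sources used here. Read numbers were not used, so depth is given as peaks per list. Thresholding by the authors used the irreproducible discovery rate (IDR). The score per peak, deposited by the authors, was not compared between samples. The signal per peak was deposited by the authors and is comparable only within a list. Where the replicates' values of a peak are ordered, differences in level between the lists are included. The −log10 values of the q-value and of the IDR, deposited by the authors, served only as filters.

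Genes came from Ensembl release 115 without transposable elements and sequence from RefSeq, and 0 peak ends lay beyond its arm lengths. Coordinates are dm6 and 1-based. Summit positions, classes, overlaps (1 bp), 101-bp windows with flanks centred 300 bp away, and words were computed in Python 3.11.15, NumPy 2.4.6, pandas 2.3.3 and SciPy 1.17.1. Figures used matplotlib 3.10.9. Functions were checked on simulated positions and against bedtools 2.31.1. Replicate values come from each replicate's thresholded list. They were compared by exact two-sided sign-flip permutation tests, whose smallest p is 0.25, and the conservative list has no replicate error of its own.

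The members, gene lists and words were chosen with earlier results of these data known. Named were the 12 members with the highest signal among those in all 3 replicates, the 10 genes with most members, up to 3 genes of each list with most members and 2 with none in alphabetical order, and the 3 longest runs. Of those 12 members, 1 is not reported here. The 5 intergenic members, the genes of the crowded 1 Mb bin and the sequence of *Raf* for GAGAGAGA were chosen after their values were seen. A member in overlapping spans counts for each gene. In the gene lists, phm and RpL37a matched no annotated gene, and tio lies on 2L and was left out. The alternatives changed the peak list, its limits, the replicates, the promoter window, the annotation, the windows and the overlap. The set of peaks found in all 3 replicates was added after the data were seen.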

Additional observations from a re-analysis of the deposited data

How the results depend on the processing

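No paired analysis was possible because the design has only 1 group. The values of the conservative list were 1.13 for the density ratio of X to the autosome arms, 0.116 percentage points for the difference in the share of peaks away from starts and exons, 86.3% for the intron share, 1.06 for the signal ratio, 40.5% for members in all 3 replicates, 6.26 points for A/T at summits minus flanks and 14.0% for genes with a member. The density ratio stayed above 1 in all 14 alternatives (1.12 to 1.19), and A/T at summits stayed above flanks in all 16 (3.54 to 8.98). Below, values are in that order of measures where they moved by more than 1 SD of the replicates, and the cause was not tested.

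To leave 1 replicate out, the conservative list was cut to peaks that overlap a thresholded peak in both replicates kept. No list was made anew, so a replicate left out could still have a part in the choice of peaks. The cut kept 42.8% to 55.4% of the members. On the cut lists the density ratio was 1.15 to 1.19, the share difference 0.0969 to 2.06 and the intron share 87.2% to 87.9%. The signal ratio was 0.996 to 1.03, the A/T difference 7.99 to 8.86 and genes with a member 9.52% to 10.6%. Of the other 3 thresholded lists of the series, the shortest gave an A/T difference of 7.45 and genes 12.9%. The longest gave a share difference of 1.17, an intron share of 85.7% and genes 15.2%, and the remaining one an intron share of 87.2% and an A/T difference of 7.23. An IDR of at most 0.001 gave 1.18, 1.57, 88.0%, 63.6% in all 3 replicates, 7.71 and 11.4%. A q-value of at most 0.05 gave 1.18, 1.44, 87.9%, 56.9% in all 3, 8.98 and 12.2%. A promoter window of 200 bp gave a share difference of 1.56, an intron share of 84.4% and genes 15.7%, and one of 1000 bp gave −0.112, 87.0%, an A/T difference of 6.81 and genes 11.5%. Protein-coding annotation only gave a share difference of −1.42 and an intron share of 80.1%. The A/T difference was 7.18 with 1 peak per merged region, 3.97 with windows of 100 bp to each side, and 3.54 and 4.54 with flanks 500 and 1000 bp away. Counting the nearest start gave genes 17.6%. Peaks found in all 3 replicates only, a set chosen after the data were seen, gave 0.975, 87.7%, an A/T difference of 8.85 and genes 9.24%.

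Of the words, the summit minus flank difference turned for AGATAA to −0.448 in the longest series list and to −0.195 with flanks 500 bp away, and for TTATGTAA to −0.0623 at an IDR of at most 0.001. Windows of 25 bp to each side gave −0.195 for TGANTCA and 0.0390 for ATTTGCAT, and windows of 100 bp gave 0.156 for CACGTG and −0.468 for TAATTA. Flanks 500 bp away gave −0.937 for TAATTA, −0.156 for TATCGATA and −0.195 for TTTATTTA. GAGAGAGA turned from 0.0390 to between −0.821 and −0.563 in the lists cut to peaks of the 2 replicates kept. In peaks found in all 3 it was −0.867. AACCGGTT turned from 0.0781 to between −0.182 and −0.0704 and to −0.193 in the same sets. ATATATAT turned from 0.117 to −0.546 with windows of 100 bp. AAAAAAAA was 3.56 and TATAAA 11.3 in peaks found in all 3. Flanks 1000 bp away gave −0.234 for TAATTA, −0.507 for TATCGATA and 0.273 for CACACACA. With 3 replicates of 1 group no exact test can pass 0.05, and read depth was not used.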
